A study of Homo sapiens with 24 samples.

Results

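Doxorubicin TIS (therapy-induced senescence) was compared with palbociclib TIS in SKBR3 cells, an established human breast cancer line that carries an amplified HER2 (ERBB2) gene. All columns of the read-count table labelled for either drug were taken, which gave 6 of the 24 samples of the series, 3 per drug, and all 14493 genes of the table. Doxorubicin was given at 10 nmol/L and palbociclib at 1 μmol/L, fresh drug was supplied on day 3, and cells were collected for RNA-seq on day 7. No genotype differed between the groups, and both drugs met the same cell line. The 3 untreated day-7 and the 3 untreated day-0 proliferative samples of the series are used only to place the levels of the drug-treated cells. The labels name a refeed on day 3 for both drugs and none for the untreated cells. In comparisons with untreated cells, refeeding and drug therefore cannot be told apart. The comparison asks how the transcriptome of cells made senescent by DNA damage differs from that of cells made senescent by blocking CDK4/6. Nothing in the labels says that the replicates came from separate cultures, so p-values measure the spread between these samples, which may be technical.

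Doxorubicin is an anthracycline that intercalates into DNA and traps topoisomerase II on cut DNA, which leaves double-strand breaks. Palbociclib inhibits CDK4 and CDK6, the kinases that pair with D-type cyclins and phosphorylate RB, and unphosphorylated RB holds back the E2F factors that switch on S phase genes. Senescent cells have stopped dividing in a lasting way, which after therapy need not be permanent, but stay metabolically active, and many secrete cytokines, chemokines, proteases and growth factors that NF-κB drives. Damaged nuclei can also leak DNA into the cytoplasm, where cGAS-STING starts an interferon response. RIG-I-like sensors start such a response to RNA.

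The counts assigned to genes ranged from 30696139 to 40842973 per doxorubicin library and from 30060164 to 32354645 per palbociclib library, and levels are given as CPM, counts relative to the library total after TMM scaling. Between log2 CPM profiles, Euclidean distances were 34.3 to 43.9 within the doxorubicin group, 39.1 to 44.5 within the palbociclib group and 59.4 to 67.0 between them. None of the 7 identity markers (ERBB2, GRB7, EPCAM, KRT7, KRT8, KRT18 and KRT19) passed the test between the drugs, and with the replicate number as a block in the model (the replicate block) 2 were lower in doxorubicin cells. The fit with that block called 2926 of all genes lower. ERBB2 stood at 6364, 5819 and 5555 CPM in doxorubicin libraries and at 6685, 6559 and 6856 CPM in palbociclib libraries. Its adjusted p was 0.208, and 0.0429 with the replicate block. Of 16 markers of fibroblasts, endothelial cells and leukocytes, 4 were tested (COL1A1, CD68, CDH5 and VWF), 0 passed at a background of 25.0% of genes, and their summed level was 57.8 to 67.6 CPM in doxorubicin and 58.4 to 67.5 CPM in palbociclib libraries. The other 12 were not tested. Transcripts of mitochondrial DNA took 6.29%, 6.07% and 4.51% of counts in doxorubicin libraries and 3.48%, 2.06% and 3.85% in palbociclib libraries. Their share moved with the groups. Leaving them out before normalization, a setting chosen after the data were seen, gave 1809 genes higher and 1681 lower. The library kit is named as one for total RNA in the methods and as one for mRNA in the labels, so which transcripts without a poly(A) tail were captured is not settled.

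Of 13874 genes tested, 1856 were higher (13.4%) and 1616 were lower (11.6%) in doxorubicin than in palbociclib cells when called at a Benjamini-Hochberg adjusted p under 0.05 (edgeR, quasi-likelihood test), 25.0% in either direction. The count of each gene list below that comes from this fit is to be read against these shares. The genes higher in doxorubicin cells moved further. A fold-change of at least 2 was reached by 441 of them against 148 of the genes lower in doxorubicin cells, and a fold-change of at least 4 by 67 against 2. The median fold-change of the genes that passed was 1.46 upward and 1.38 downward, and the median log2 fold-change over all genes tested was 0.00. The study's own rule, an unadjusted p under 0.05 together with a change of 2-fold or more, gave 477 genes higher (3.44%) and 169 lower (1.22%). The 3 doxorubicin libraries did not overlap the 3 palbociclib libraries for 41.6% of the genes tested. In these bulk samples, more RNA of a gene per cell and more cells that express it cannot be told apart. With the replicate number as a block 3023 genes were higher and 2926 lower, among them all 3472 genes called without it. Without doxorubicin replicate 1 the counts were 1051 and 856. A list count with the replicate block or with a library left out is to be read against the total of the same fit. The shares of all genes given above do not apply to it.

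**Figure D1:**
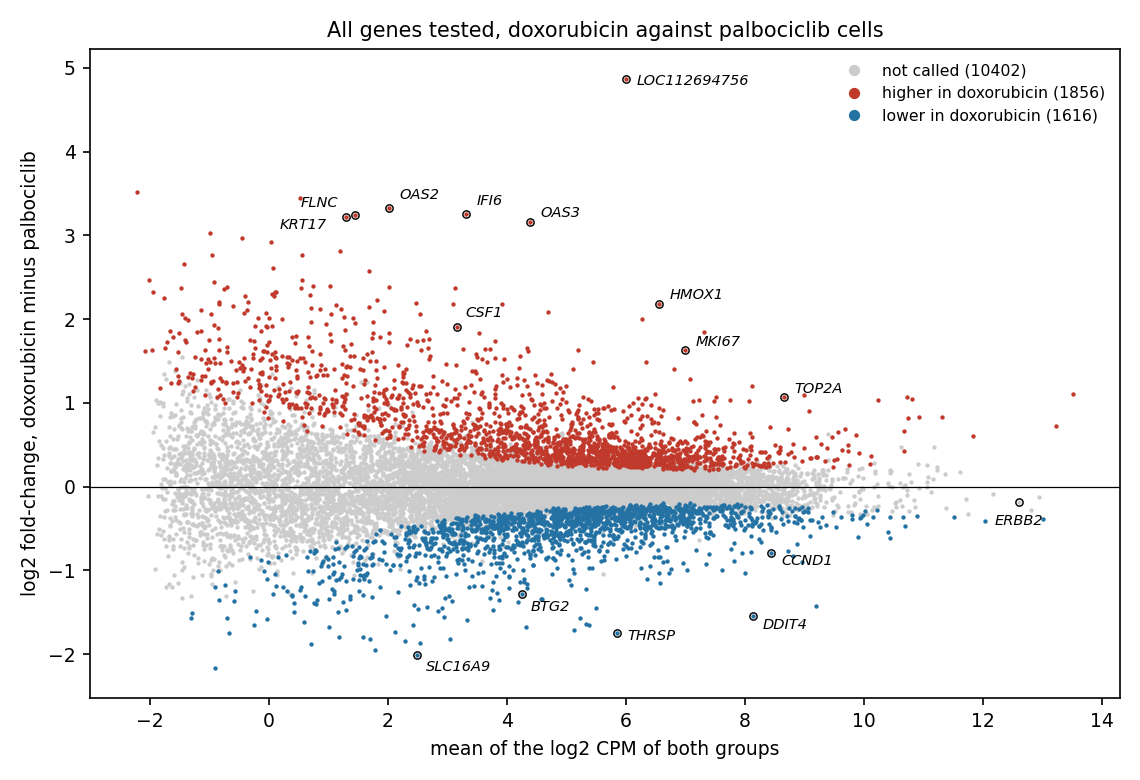
Each dot is 1 of the 13874 genes tested, with the average log2 CPM of both groups on the x axis and the log2 fold-change of doxorubicin minus palbociclib on the y axis. Coloured genes passed the adjusted p-value (1856 higher in red, 1616 lower in blue), and more genes pass a log2 fold-change of 1 upward (441) than downward (148), with OAS2, IFI6 and OAS3 among the highest.

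Interferon-stimulated genes had the largest median difference of the lists. These genes are switched on by STAT and IRF factors and encode antiviral effectors and signalling proteins. Of 44 listed genes 29 were tested, and 24 of them were higher and 1 was lower in doxorubicin cells, against backgrounds of 13.4% and 11.6% of all genes. Their median log2 fold-change was 1.27. OAS2, OAS3 and OAS1, neighbours on chromosome 12 that encode synthetases of the 2′-5′ oligoadenylates which activate RNase L, were all higher. OAS2 (NCBI Gene 4939, chr12:113416200-113449528, GRCh37) was at 11.6, 16.8 and 10.4 CPM in doxorubicin libraries and at 1.08, 1.66 and 1.10 CPM in palbociclib libraries. Every doxorubicin library lay above every palbociclib library, with a log2 fold-change of 3.33 ± 0.24 (SE, adjusted p = 2.41e-05). OAS3 (NCBI Gene 4940, chr12:113375856-113414265) reached 61.2, 65.9 and 61.5 CPM with doxorubicin against 7.58, 6.75 and 6.66 CPM with palbociclib. Its log2 fold-change of 3.16 ± 0.09 (SE) had an adjusted p of 2.92e-08. OAS1 (NCBI Gene 4938, chr12:113343661-113371024) was at 16.3, 23.7 and 14.8 CPM against 3.18, 5.001 and 3.93 CPM (log2 fold-change 2.18, adjusted p = 0.000110).

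IFI6 (NCBI Gene 2537, chr1:27992575-27998723), which encodes an interferon-induced protein of the endoplasmic reticulum and mitochondria, stood at 35.3, 29.9 and 27.6 CPM in doxorubicin libraries and at 3.06, 3.51 and 3.13 CPM in palbociclib libraries. The groups lay far apart, with a log2 fold-change of 3.26 ± 0.13 (SE, adjusted p = 4.18e-07). IFITM1, which restricts the entry of viruses at the membrane, was at 8.33, 8.64 and 5.97 CPM against 1.62, 1.69 and 1.60 CPM (log2 fold-change 2.22, adjusted p = 7.60e-05). Its value is uncertain, since reads can be shared with the close paralogs IFITM2 and IFITM3. The other members that were higher included PARP9, MX1, IRF7, BST2, HERC6, SAMD9, ISG15, IRF9, PARP14, DTX3L, UBE2L6, IFI35, PLSCR1, GBP1, IFITM3, IFIT5, IRF1 and USP18, in order of fold-change. STAT2, a subunit of the transcription factor ISGF3, was the 1 member lower in doxorubicin cells, at 57.8, 51.3 and 62.7 CPM against 80.4, 67.9 and 90.7 CPM (log2 fold-change -0.48, adjusted p = 0.0119). It is named here because of its values, as it lies outside the naming rule.

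Untreated day-7 cells had mean levels of 16 CPM for OAS3, 6.01 CPM for IFI6 and 0.951 CPM for OAS2. Against them, OAS3 was higher in doxorubicin cells (log2 fold-change 1.999, adjusted p = 5.51e-08) and lower in palbociclib cells (log2 fold-change -1.18, adjusted p = 2.46e-05). IFI6 likewise was 2.39 higher and 0.88 lower on the log2 scale (adjusted p = 7.9e-07 and 0.00465), so for both genes the untreated level lay between the drugs. OAS2 was 3.81 higher with doxorubicin (adjusted p = 1.27e-06), and with palbociclib its log2 fold-change was 0.46 (adjusted p = 0.296). Of the 24 members higher in doxorubicin cells, 17 had an untreated day-7 level below both drugs, 6 between them and 1 above both. Both comparisons share the untreated libraries, and over all genes they called 43.4% (doxorubicin) and 44.8% (palbociclib) of those tested.

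**Figure D2:**
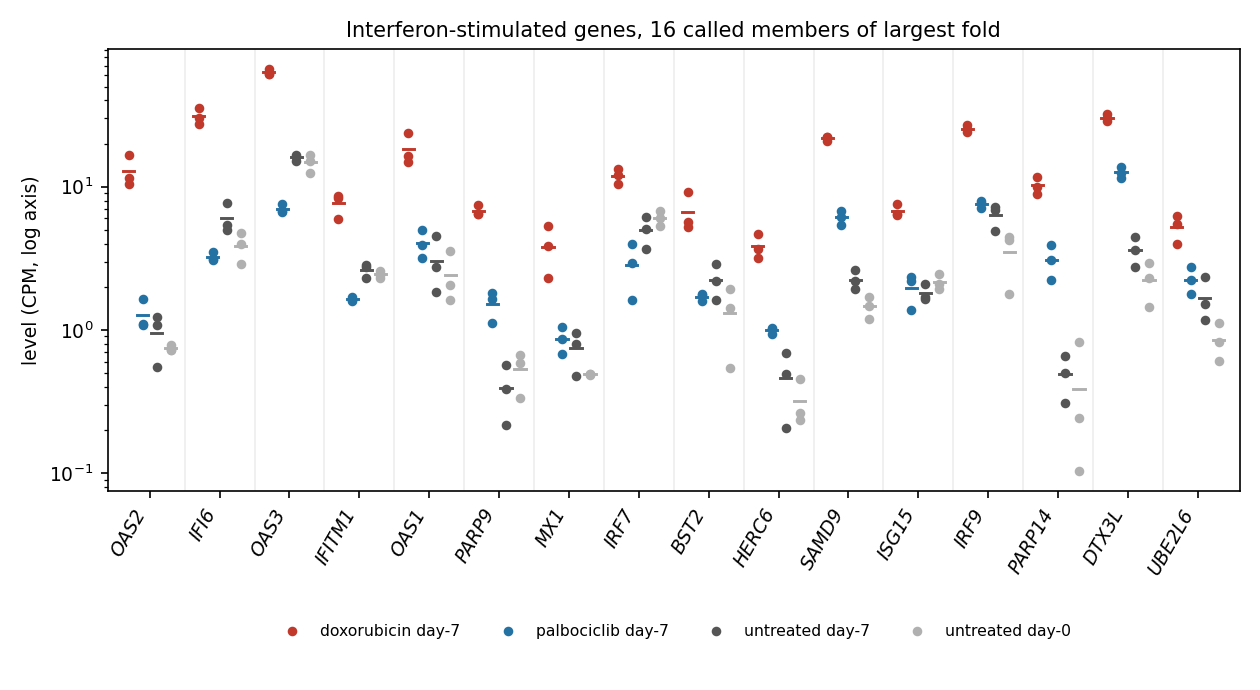
Levels in CPM on a log axis of the 16 interferon-stimulated genes with the largest fold-change among those that passed, with 1 dot per library, a bar for the mean of 3 libraries, and colours for doxorubicin, palbociclib, untreated day-7 and untreated day-0 cells. For each gene every doxorubicin dot (OAS3 at 61.2 to 65.9 CPM) lies above every palbociclib dot (6.66 to 7.58 CPM).

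The promoters of these genes were read for the interferon-stimulated response element, searched as GAAA, any 2 bases and GAAA on both strands in the 250 bases before the start of the RefSeq gene model (GRCh38.p14). Of the 29 tested members 22 had a promoter in the table used, and 12 of these (54.5%) held a match, against 243 of 10700 promoters (2.27%) of all genes tested. A match is a description of the letters and not a mapped site. IFI6 held 3 matches and OAS3 held 2, which are in capitals below, and OAS2 had no entry. The sequences, 5′ to 3′ on the strand of the gene, are shown because these are the members with the largest fold-change that have an entry (IFI6 at chr1:27672193-27672442, minus strand, and OAS3 at chr12:112938224-112938473, plus strand).
IFI6: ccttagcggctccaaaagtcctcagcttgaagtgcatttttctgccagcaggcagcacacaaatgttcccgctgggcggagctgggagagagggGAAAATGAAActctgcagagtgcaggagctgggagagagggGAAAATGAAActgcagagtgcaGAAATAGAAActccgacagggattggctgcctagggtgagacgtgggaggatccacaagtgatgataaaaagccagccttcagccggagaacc
OAS3: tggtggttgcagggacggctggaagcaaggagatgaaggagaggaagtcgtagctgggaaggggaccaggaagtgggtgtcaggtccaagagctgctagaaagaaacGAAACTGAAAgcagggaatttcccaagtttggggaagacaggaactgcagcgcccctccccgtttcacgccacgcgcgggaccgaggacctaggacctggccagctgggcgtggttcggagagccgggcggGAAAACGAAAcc

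Of 14 genes of nucleic acid sensing tested, 9 were higher and 0 were lower in doxorubicin cells (1 lower with the replicate block). Their median log2 fold-change was 0.51, and 5 were higher without doxorubicin replicate 1. RIGI, listed under its older symbol DDX58 and the sensor of 5′-triphosphate RNA, was at 11.9, 13.5 and 9.64 CPM against 4.20, 5.52 and 4.94 CPM (log2 fold-change 1.26, adjusted p = 0.000590). IFIH1 encodes MDA5, the sensor of long double-stranded RNA, and its log2 fold-change was 0.85 (adjusted p = 0.000253). SAMHD1, which degrades deoxynucleotides and is also interferon-inducible, was at 21.1, 25.0 and 19.7 CPM against 12.8, 10.8 and 12.03 CPM (log2 fold-change 0.88, adjusted p = 0.000688). TREX1, the exonuclease that clears cytosolic DNA, had a log2 fold-change of 1.12 (adjusted p = 0.0327), a call lost without 4 of the 6 libraries in turn (adjusted p = 0.0671 to 0.110, doxorubicin replicates 1 and 2 and palbociclib replicates 1 and 3).

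Of 18 genes of MHC class I presentation tested, 6 were higher and 0 were lower, with a median log2 fold-change of 0.15, and with the replicate block 9 were higher and 2 lower. PSMB9 and PSMB8, subunits of the immunoproteasome, had log2 fold-changes of 1.56 and 0.97 (adjusted p = 0.000461 and 0.000412). NLRC5, the transactivator of class I genes, was at 2.58, 1.86 and 3.23 CPM against 0.869, 0.877 and 0.982 CPM (log2 fold-change 1.49, adjusted p = 0.00321). TAP1, which carries peptides into the endoplasmic reticulum, reached 129, 99.8 and 134 CPM against 64.3, 54.1 and 65.7 CPM. No doxorubicin library overlapped a palbociclib library for TAP1 (log2 fold-change 0.98, adjusted p = 0.000385).

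NF-κB target genes were higher in doxorubicin cells for 13 of 21 members tested and lower for 0 (1 with the replicate block), and the median log2 fold-change was 0.42. ICAM1, an adhesion molecule for leukocytes, was at 36.0, 29.1 and 42.6 CPM with doxorubicin and at 11.99, 11.7 and 11.4 CPM with palbociclib. For ICAM1 the log2 fold-change was 1.62 ± 0.14 (SE, adjusted p = 5.56e-05). The ICAM1 mean of untreated day-7 cells was 4.85 CPM, and both drugs were above it, by 2.92 and 1.29 on the log2 scale (adjusted p = 1.61e-07 and 4.06e-05). BIRC3, an inhibitor of apoptosis, and TNFAIP3, which encodes the feedback inhibitor A20, had log2 fold-changes of 1.52 and 1.10 (adjusted p = 0.000102 and 0.00198). The kinase gene IRAK2 was at or under 0.964 CPM in every library of both drugs, and its call (log2 fold-change 1.29, adjusted p = 0.0156) was lost without doxorubicin replicate 1, palbociclib replicate 1 or palbociclib replicate 2 (adjusted p = 0.0514 to 0.0612).

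Of 51 genes of secreted factors linked to senescence 27 were tested. In doxorubicin cells 13 were higher and 1 was lower (2 lower with the replicate block). The median log2 fold-change was 0.60. CSF1 (NCBI Gene 1435, chr1:110452864-110473614), the growth factor of macrophages, was at 17.8, 16.5 and 18.1 CPM with doxorubicin and at 4.29, 4.90 and 4.76 CPM with palbociclib. The libraries within each group lay close together, and the log2 fold-change was 1.91 ± 0.12 (SE, adjusted p = 1.18e-05). CCL2, a chemokine for monocytes, was at 23.8, 12.9 and 21.5 CPM against 8.24, 5.07 and 6.14 CPM (log2 fold-change 1.58, adjusted p = 0.00113). CCL2 was above the untreated day-7 mean of 2.52 CPM with either drug, by 2.94 and 1.36 on the log2 scale (adjusted p = 1.28e-05 and 0.00343). PLAU, the urokinase that activates plasminogen, was at 4.70, 1.83 and 3.45 CPM against 0.5995, 0.682 and 0.644 CPM (log2 fold-change 2.37, adjusted p = 0.00115). INHBA, a subunit of activin, had a log2 fold-change of 1.71 (adjusted p = 0.0121), and its adjusted p was 0.0522 without doxorubicin replicate 1 and 0.0530 without palbociclib replicate 1. IGFBP5, a binding protein of insulin-like growth factors and the member lower in doxorubicin cells, is named here because of its values. Its log2 fold-change was -0.69 (adjusted p = 0.0327), the groups overlapped, and the call was lost without any 1 of doxorubicin replicates 1 and 2 and palbociclib replicates 1 and 3.

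LCN2 and GDF15, secreted markers of senescence, did not pass between the drugs. LCN2 was at 17.2, 19.9 and 17.8 CPM with doxorubicin and at 6.74, 17.7 and 10.5 CPM with palbociclib, where replicate 2 stood near the doxorubicin level. The LCN2 log2 fold-change was 0.65 (adjusted p = 0.0898), and the adjusted p was 0.000948 with the replicate block and 0.00273 without palbociclib replicate 2, where the log2 fold-change was 1.07. GDF15 was at 27.3, 22.6 and 19.2 CPM against 11.99, 22.1 and 12.7 CPM (log2 fold-change 0.56, adjusted p = 0.0763, with the replicate block 0.00333, without palbociclib replicate 2 log2 fold-change 0.89 and adjusted p = 0.00295). Against untreated day-7 cells, LCN2 was 4.89 higher with doxorubicin and 4.22 higher with palbociclib on the log2 scale (adjusted p = 7.48e-07 and 5.21e-05). GDF15 was 2.86 and 2.28 higher (adjusted p = 2.67e-05 and 0.000556).

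Genes of ligands that natural killer and T cells read were higher for 6 of 15 members tested and lower for 0. The number higher was 10 with the replicate block and 3 without doxorubicin replicate 1. MICB, a stress ligand of the receptor NKG2D, was at 2.89, 1.75 and 2.43 CPM against 0.300, 0.260 and 0.890 CPM (log2 fold-change 2.27, adjusted p = 0.0033). The other NKG2D ligands ULBP2 and RAET1G had log2 fold-changes of 1.05 and 1.63 (adjusted p = 0.0116 and 0.0154), and neither passed without doxorubicin replicate 1 (adjusted p = 0.0553 and 0.0805). RAET1G also failed to pass without palbociclib replicate 3 (adjusted p = 0.0558), and its reads can be shared with related genes of its family. CD274, which encodes PD-L1, was at 10.5, 7.84 and 11.5 CPM with doxorubicin and at 4.35, 5.29 and 6.69 CPM with palbociclib. The CD274 log2 fold-change was 0.87 (adjusted p = 0.00949, and 0.0505 without doxorubicin replicate 1), and both drugs were above the untreated day-7 mean of 2.83 CPM, by 1.84 and 0.97 on the log2 scale (adjusted p = 4.05e-05 and 0.00692). LGALS9, a galectin that binds TIM-3, had a log2 fold-change of 0.97 (adjusted p = 0.0108).

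The CDK4/6, cyclin and RB genes split into those higher and those lower in doxorubicin cells, with 13 and 9 of 28 members tested, and 5 were lower without doxorubicin replicate 1. Lower in doxorubicin, and so higher in palbociclib cells, were CCND1, CDK4 and CDK6, which encode the complex that palbociclib inhibits, with CCNE1, RBL2, E2F3, E2F4, E2F5 and TFDP2. CCND1 (NCBI Gene 595, chr11:69455924-69469242), which encodes cyclin D1, was at 263, 288 and 243 CPM with doxorubicin and at 452, 507 and 410 CPM with palbociclib (log2 fold-change -0.79, adjusted p = 0.000369). The untreated day-7 mean of CCND1 was 197 CPM, and the gene was above it with either drug, by 0.45 and 1.22 on the log2 scale (adjusted p = 0.00352 and 8.83e-06). CDK6 was at 64.4, 65.5 and 73.9 CPM against 89.7, 98.1 and 104 CPM (log2 fold-change -0.52, adjusted p = 0.00202). CDK4 and the cyclin E1 gene CCNE1 were lower by smaller amounts (log2 fold-changes -0.29 and -0.36, adjusted p = 0.0148 and 0.0155), and both missed the threshold without doxorubicin replicate 1 (0.0551 and 0.0728) and with all 24 libraries in the fit (0.124 and 0.122). Relative to untreated day-7 cells CDK4 was lower with doxorubicin and with palbociclib (log2 fold-changes -0.53 and -0.25, adjusted p = 0.000453 and 0.0238). CDK6 was higher than in untreated day-7 cells with both (log2 fold-changes 0.46 and 0.97, adjusted p = 0.0142 and 0.000192). RB1 was slightly higher in doxorubicin cells (log2 fold-change 0.26, adjusted p = 0.0309), a call lost without any 1 of 5 libraries, all but doxorubicin replicate 2 (adjusted p = 0.0522 to 0.121).

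Higher in doxorubicin cells were E2F1, E2F2, E2F7, E2F8, CCNE2, CCNA2, CDK2, CCND3, CDC25A, RB1, RBL1, MYBL2 and FOXM1. E2F2, an activating E2F factor, was at 18.9, 19.6 and 19.8 CPM with doxorubicin and at 7.01, 5.36 and 7.49 CPM with palbociclib, with no overlap (log2 fold-change 1.55, adjusted p = 7.60e-05). The log2 fold-change was 1.32 for CCNE2, which encodes cyclin E2, and 1.22 and 1.18 for the repressor E2F genes E2F8 and E2F7 (adjusted p = 0.00396, 0.00125 and 0.00431). All 13 members that were higher had an untreated day-7 level above both drugs. E2F2 fell by 0.53 on the log2 scale with doxorubicin and by 2.09 with palbociclib relative to untreated day-7 cells (adjusted p = 0.00649 and 6.73e-06).

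Of 6 genes of CDK inhibitors tested, CDKN2C and CDKN1B were higher and CDKN1A was lower in doxorubicin cells, and 2 were lower with the replicate block. CDKN1A, which encodes p21, was at 21.5, 19.98 and 17.9 CPM with doxorubicin and at 27.5, 26.9 and 25.1 CPM with palbociclib (log2 fold-change -0.42, adjusted p = 0.00994, and 0.346 with all 24 libraries in the fit). Relative to untreated day-7 cells it rose by 0.72 and 1.13 on the log2 scale (adjusted p = 0.00253 and 0.000123). CDKN1B, which encodes p27, had a log2 fold-change of 0.32 (adjusted p = 0.0137, and 0.0589 without doxorubicin replicate 1) and CDKN2C, which encodes p18, of 0.65 (adjusted p = 0.00253). CDKN2A was at 14.6, 11.7 and 13.2 CPM against 16.9, 15.6 and 16.1 CPM (log2 fold-change -0.30, adjusted p = 0.078, and 0.0165 with the replicate block). Since p16 and p14ARF share this gene, the count does not separate them.

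Most S phase and G2/M phase genes were higher in doxorubicin than in palbociclib cells. In the S phase list 37 of 43 members were higher and 0 were lower, with a median log2 fold-change of 0.67, and in the G2/M list 41 of 54 were higher and 0 were lower (1 with the replicate block), with a median of 0.74. The backgrounds were 13.4% and 11.6% of all genes. RRM2, the subunit of ribonucleotide reductase that limits deoxynucleotide supply, was at 183, 172 and 191 CPM with doxorubicin and at 80.5, 54.3 and 71.2 CPM with palbociclib (log2 fold-change 1.403, adjusted p = 7.60e-05). CLSPN, the claspin adaptor of the ATR-CHK1 checkpoint, was at 22.1, 21.4 and 26.5 CPM against 8.57, 4.81 and 9.02 CPM (log2 fold-change 1.64, adjusted p = 0.000402). PRIM1, the primase subunit that starts new DNA strands, had a log2 fold-change of 1.47 (adjusted p = 0.000509).

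MKI67 (NCBI Gene 4288, chr10:129894923-129924687), which encodes the proliferation antigen Ki-67, was at 228, 202 and 247 CPM with doxorubicin and at 86.6, 54.5 and 77.9 CPM with palbociclib. The groups did not overlap (log2 fold-change 1.63 ± 0.15, SE, adjusted p = 8.33e-05). CKAP2L (NCBI Gene 150468, chr2:113493926-113522241), a spindle protein, was at 23.1, 19.6 and 23.0 CPM against 9.53, 5.94 and 5.52 CPM (log2 fold-change 1.64, adjusted p = 0.000261). CENPF and NDC80, both proteins of the kinetochore, had log2 fold-changes of 1.28 and 1.45 (adjusted p = 0.000369 and 0.00106). Untreated day-7 cells had mean levels above both drugs for all 37 S phase and all 41 G2/M genes that were higher. The median log2 fold-change relative to them was -0.51 with doxorubicin and -1.13 with palbociclib over the S phase list, and -0.45 and -1.24 over the G2/M list. MKI67 itself had a log2 fold-change of -0.32 with doxorubicin (adjusted p = 0.0606) and of -1.96 with palbociclib (adjusted p = 1.04e-05) in those comparisons.

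The same promoter windows were searched for an E2F motif (TTTNNCGC) and for the cell cycle homology region (TTTGAA), the element through which the DREAM and MYB-MuvB complexes act on late genes, on both strands. The cell cycle homology region was found in 24 of 45 G2/M promoters (53.3%), in 1 of 33 S phase promoters (3.03%) and in 880 of 10700 promoters of all genes tested (8.22%). The E2F motif was found in 13 of 33 S phase promoters (39.4%), in 4 of 45 G2/M promoters (8.89%) and in 975 of 10700 promoters (9.11%). The promoters of CLSPN and EXO1, the S phase genes with the largest fold-change, held no match to any of the 3 motifs and are not shown. The letters of the 3 motifs can overlap, as an E2F match does with the second element of OAS3 above. CKAP2L and MKI67, the G2/M genes with the largest fold-change, each held 2 matches to the cell cycle homology region, in capitals below (chr2:112764610-112764859 and chr10:128126424-128126673, GRCh38.p14, both minus strand, 250 bases before the start).
CKAP2L: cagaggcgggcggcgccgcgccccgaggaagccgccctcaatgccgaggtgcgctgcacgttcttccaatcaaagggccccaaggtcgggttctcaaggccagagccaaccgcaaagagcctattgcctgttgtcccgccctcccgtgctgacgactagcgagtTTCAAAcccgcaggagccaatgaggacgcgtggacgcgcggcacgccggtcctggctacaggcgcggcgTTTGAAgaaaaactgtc
MKI67: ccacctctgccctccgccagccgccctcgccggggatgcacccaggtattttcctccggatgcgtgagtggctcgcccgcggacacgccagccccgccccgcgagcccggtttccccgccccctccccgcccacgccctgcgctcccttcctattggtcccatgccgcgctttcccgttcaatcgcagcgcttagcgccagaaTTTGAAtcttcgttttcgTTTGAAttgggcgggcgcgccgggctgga

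Genes of the proteins that license replication origins were higher for 16 of 25 members and lower for 0 (2 with the replicate block). The median log2 fold-change was 0.50. Several members, among them GMNN, also belong to the S phase list. CDT1, which loads the MCM helicase, was at 28.8, 33.5 and 27.9 CPM with doxorubicin and at 14.2, 9.68 and 9.76 CPM with palbociclib (log2 fold-change 1.42, adjusted p = 0.000180). GMNN, which encodes geminin, the inhibitor of CDT1, moved in the same direction, at 23.1, 26.7 and 21.6 CPM against 9.95, 9.32 and 10.6 CPM (log2 fold-change 1.25, adjusted p = 8.00e-05). ORC1 of the origin recognition complex and MCM10, which helps to fire origins, had log2 fold-changes of 1.38 and 1.27 (adjusted p = 0.000620 and 8.00e-05). All 16 members that were higher were above both drugs in untreated day-7 cells.

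Of 35 genes that repair double-strand breaks and crosslinks, 7 were higher (against 13.4% of all genes) and 0 were lower, and with the replicate block 17 were higher and 4 lower. EXO1, the nuclease that resects broken ends, was at 22.5, 23.9 and 24.5 CPM against 8.72, 6.40 and 9.36 CPM (log2 fold-change 1.53, adjusted p = 8.34e-05). BLM, the helicase of Bloom syndrome, had a log2 fold-change of 1.00 (adjusted p = 0.000364). FANCE of the Fanconi core complex was 1.11 higher on the log2 scale (adjusted p = 0.00118). The nonhomologous end-joining genes XRCC4, XRCC5, XRCC6, LIG4, NHEJ1 and PRKDC, singled out after their values were seen, had log2 fold-changes from -0.09 to 0.32, and none of the 6 passed. With the replicate block PRKDC, XRCC5 and XRCC6 were higher (adjusted p = 0.000298, 0.00569 and 0.0152). EXO1 and BLM are also members of the S phase list.

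Target genes of p53 were lower in doxorubicin cells for 6 of 26 members tested and higher for 3, against 11.6% and 13.4% of all genes, with a median log2 fold-change of 0.09. With the replicate block 7 were higher and 6 lower. Leaving out doxorubicin replicate 1 left 3 lower, in a fit that called 856 of all genes lower. Leaving out palbociclib replicate 2 gave 5 higher, in a fit that called 1446 of all genes higher. BTG2, an antiproliferative gene, was at 10.3, 13.8 and 12.8 CPM with doxorubicin and at 27.1, 28.3 and 34.4 CPM with palbociclib (log2 fold-change -1.29, adjusted p = 0.000167). TP53INP1, a stress gene of autophagy and cell death, was at 10.1, 10.7 and 14.6 CPM against 21.2, 22.3 and 24.6 CPM (log2 fold-change -0.95, adjusted p = 0.00128). DDB2, a damage sensor of nucleotide excision repair, and GADD45A, a growth arrest gene, were higher in doxorubicin cells by 0.79 and 0.59 on the log2 scale (adjusted p = 0.00500 and 0.0108).

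Of 20 genes that doxorubicin binds or that transport and reduce it, 6 were higher and 1 was lower, or 7 and 5 with the replicate block. TOP2A (NCBI Gene 7153, chr17:38544777-38574148), the topoisomerase II isoform of dividing cells and a G2/M list member, was at 574, 549 and 632 CPM with doxorubicin and at 339, 235 and 260 CPM with palbociclib (log2 fold-change 1.07, adjusted p = 0.000326). TOP2B, the other topoisomerase II isoform, was at 168, 167 and 182 CPM against 192, 160 and 178 CPM, and the groups overlapped (log2 fold-change -0.04 ± 0.08, SE, adjusted p = 0.764). AKR1B10 and CBR3, reductases that can act on anthracyclines, were higher by 1.72 and 0.94 on the log2 scale (adjusted p = 0.00894 and 0.00597). AKR1B10 varied widely between replicates, at 5.56, 9.23 and 7.34 CPM against 0.839, 3.67 and 2.21 CPM. ABCC3, an exporter, was the member lower in doxorubicin cells, at 14.7, 23.6 and 18.5 CPM against 25.4, 48.5 and 43.2 CPM (log2 fold-change -1.05, adjusted p = 0.00698).

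Among 19 polyadenylated and variant histone genes, 7 were higher and 2 were lower, and with the replicate block 11 were higher. Leaving out doxorubicin replicate 1 or 3 or palbociclib replicate 1 or 2 gave 0 lower, and leaving out palbociclib replicate 3 gave 1. H1-10, a linker histone, was at 38.7, 41.7 and 27.4 CPM against 13.7, 8.90 and 11.5 CPM (log2 fold-change 1.66, adjusted p = 0.000202). CENPA, the histone of centromeres, and H4C14 had log2 fold-changes of 1.19 and 0.93 (adjusted p = 0.000714 and 0.00317). CENPA is also a member of the G2/M list, and the reads of H4C14 can be shared with other H4 genes.

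Genes of lamins and chromatin proteins linked to senescence were higher in doxorubicin cells for 7 of 16 members tested. None was lower (1 with the replicate block). LMNB1, which encodes lamin B1, was at 41.2, 48.4 and 45.4 CPM against 24.6, 15.4 and 19.6 CPM (log2 fold-change 1.18, adjusted p = 0.000400). Relative to the untreated day-7 mean of 78.0 CPM LMNB1 fell by 0.77 with doxorubicin and by 1.96 with palbociclib on the log2 scale (adjusted p = 8.94e-05 and 4.8e-06). HMGB2, a DNA-bending protein, and CBX5, which encodes the heterochromatin protein HP1α, had log2 fold-changes of 1.28 and 0.82 (adjusted p = 0.000509 and 0.000264). HMGB2 and CBX5 are also members of the G2/M list. All 7 members that were higher had untreated day-7 levels above both drugs.

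Actin and contractile genes were higher in doxorubicin cells for 10 of 23 members tested and lower for 2. The count of those higher was 5 without doxorubicin replicate 1 or palbociclib replicate 2, and 6 without palbociclib replicate 3. ACTA2, the actin of smooth muscle and of myofibroblasts, was at 11.97, 9.41 and 9.61 CPM with doxorubicin and at 4.02, 3.28 and 2.73 CPM with palbociclib (log2 fold-change 1.63, adjusted p = 0.000233). The untreated day-7 mean of ACTA2 was 0.776 CPM, below both drugs (log2 fold-changes 3.78 and 2.13, adjusted p = 8.69e-07 and 0.000329). TAGLN, an actin-binding protein of the same cells, had a log2 fold-change of 1.503 (adjusted p = 0.00256). THBS1, a matrix glycoprotein, was at 465, 313 and 487 CPM against 206, 144 and 201 CPM (log2 fold-change 1.20, adjusted p = 0.00103). TPM2, a tropomyosin, ran the other way, at 1.73, 0.947 and 1.31 CPM against 3.33, 2.37 and 5.59 CPM (log2 fold-change -1.49, adjusted p = 0.00922).

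Keratin and S100 genes were higher for 7 of 25 members tested and lower for 1, for 11 and 6 with the replicate block, and for 3 downward without doxorubicin replicate 2. KRT17 (NCBI Gene 3872, chr17:39775694-39781094), KRT16 and KRT13, keratins of basal and stratified epithelium, had log2 fold-changes of 3.22, 1.63 and 1.92 (adjusted p = 7.60e-05, 0.00139 and 0.00122). KRT17 was at 8.96, 6.27 and 7.37 CPM with doxorubicin and at 1.20, 0.714 and 0.491 CPM with palbociclib, and reads from KRT16 and KRT17 can be split by their close sequence. S100A7, psoriasin, was at 2.26, 2.63 and 2.30 CPM against 0.390, 0.520 and 0.522 CPM (log2 fold-change 2.32, adjusted p = 0.000253). The luminal keratins KRT8, KRT18 and KRT19 did not pass (log2 fold-changes -0.15, -0.17 and -0.04).

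HER2 and luminal identity genes gave 3 higher and 3 lower of 22 tested, against 13.4% and 11.6% of all genes, and 5 lower with the replicate block. MUC1, a mucin of the apical membrane, was at 130, 165 and 114 CPM with doxorubicin and at 60.4, 88.2 and 68.3 CPM with palbociclib (log2 fold-change 0.91, adjusted p = 0.00187). GATA3, the luminal transcription factor, was lower at 113, 131 and 116 CPM against 178, 168 and 172 CPM (log2 fold-change -0.52, adjusted p = 0.00103). PGAP3, a neighbour of ERBB2 in its amplicon, was lower as well (log2 fold-change -0.50, adjusted p = 0.00128).

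Lysosomal genes split in both directions, with 8 of 36 higher and 9 lower in doxorubicin cells, and a median log2 fold-change of -0.10. With the replicate block 11 were higher and 15 lower, without doxorubicin replicate 1 the counts were 4 and 3, and 5 were lower without palbociclib replicate 2 and 3 without replicate 3. GLB1, which encodes the β-galactosidase read by the common senescence stain, was at 194, 193 and 193 CPM against 206, 199 and 212 CPM (log2 fold-change -0.09 ± 0.07, SE, adjusted p = 0.344). The untreated day-7 mean of GLB1 was 168 CPM, and with both drugs it was higher, by 0.22 and 0.31 on the log2 scale (adjusted p = 0.0279 and 0.00506). CTSS, a cathepsin of antigen-presenting cells, was at 6.67, 5.86 and 10.7 CPM against 2.19, 3.38 and 3.499 CPM (log2 fold-change 1.35, adjusted p = 0.00421). NPC1, the exporter of lysosomal cholesterol, was 0.60 higher and LIPA, the lipase that frees that cholesterol from esters, was 0.49 lower on the log2 scale (adjusted p = 0.00225 and 0.00200). The calcium channel gene MCOLN1 was 0.53 higher (adjusted p = 0.0128, and 0.0760 without doxorubicin replicate 1).

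Genes of cholesterol synthesis enzymes were higher in doxorubicin cells for 10 of 20 members and lower for 1, with a median log2 fold-change of 0.31. With all 24 libraries in the fit 3 were higher and 0 lower. HMGCS1, which makes HMG-CoA, was at 112, 109 and 120 CPM against 69.1, 62.9 and 68.4 CPM (log2 fold-change 0.76, adjusted p = 0.000137). SQLE, squalene epoxidase, had a log2 fold-change of 0.48 (adjusted p = 0.00544). LBR, a sterol reductase that also anchors chromatin at the lamina, belongs to the G2/M list as well and was 0.93 higher (adjusted p = 0.000692). SQLE did not pass with all 24 libraries in the fit (adjusted p = 0.0940). Of 17 fatty acid synthesis genes, 2 were higher and 2 lower, close to the 13.4% and 11.6% of all genes, and 4 were lower with the replicate block. THRSP (NCBI Gene 7069, chr11:77774907-77779397), a gene of lipogenesis induced by thyroid hormone, was at 26.4, 42.6 and 25.4 CPM with doxorubicin and at 102, 124 and 91.5 CPM with palbociclib (log2 fold-change -1.75, adjusted p = 0.000158). The untreated day-7 mean of THRSP was 32.6 CPM, near the doxorubicin level. FADS1, a desaturase, and ACACB, the mitochondrial acetyl-CoA carboxylase, were higher by 1.46 and 0.55 on the log2 scale (adjusted p = 0.00128 and 0.00699). ACACB did not pass with all 24 libraries in the fit (adjusted p = 0.137). ME1, which supplies NADPH, had a log2 fold-change of -0.44 (adjusted p = 0.0174, lost without doxorubicin replicate 1 or 3 with 0.0799 and 0.0542).

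Ribosome biogenesis genes linked to MYC gave 3 higher and 0 lower of 32, below the background of 13.4%, with a median log2 fold-change of 0.01. TCOF1, NCL and WDR43, factors of ribosomal RNA synthesis, had log2 fold-changes of 0.36, 0.24 and 0.22 (adjusted p = 0.00393, 0.0457 and 0.0386), and NCL passed in 0 and WDR43 in 1 of the 6 fits that left a library out. With the replicate block 5 were higher and 1 lower. Target genes of ATF4, the factor of the amino acid and stress response, gave 1 higher and 4 lower of 22, against backgrounds of 13.4% and 11.6% of all genes, and 6 and 6 with the replicate block, and 7 were higher without palbociclib replicate 2 and 2 without doxorubicin replicate 2 or 3. DDIT4 (NCBI Gene 54541, chr10:74033678-74035794), the mTORC1 inhibitor REDD1, was at 140, 207 and 146 CPM with doxorubicin and at 440, 604 and 398 CPM with palbociclib. The groups did not overlap for DDIT4 (log2 fold-change -1.55, adjusted p = 0.000242), and its untreated day-7 mean was 159 CPM. VLDLR and PSPH were lower by less (log2 fold-changes -0.60 and -0.42, adjusted p = 0.00102 and 0.0107), and the amino acid transporter gene SLC3A2 was 0.61 higher (adjusted p = 0.00178). In the BCL-2 family 1 of 14 was higher and 1 lower, both below the shares of all genes (13.4% and 11.6%). The higher one was PMAIP1, which encodes the cell death protein NOXA, at 8.26, 7.52 and 11.7 CPM against 3.78, 4.90 and 4.76 CPM (log2 fold-change 1.03, adjusted p = 0.00408). BOK was the lower one (log2 fold-change -0.40, adjusted p = 0.0443) and missed the threshold without any 1 of 4 libraries, doxorubicin replicates 2 and 3 and palbociclib replicates 2 and 3 (0.0549 to 0.120). With the replicate block 2 members of this family were higher and 4 lower, and 2 were higher without palbociclib replicate 1 or 2.

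**Figure D3:**
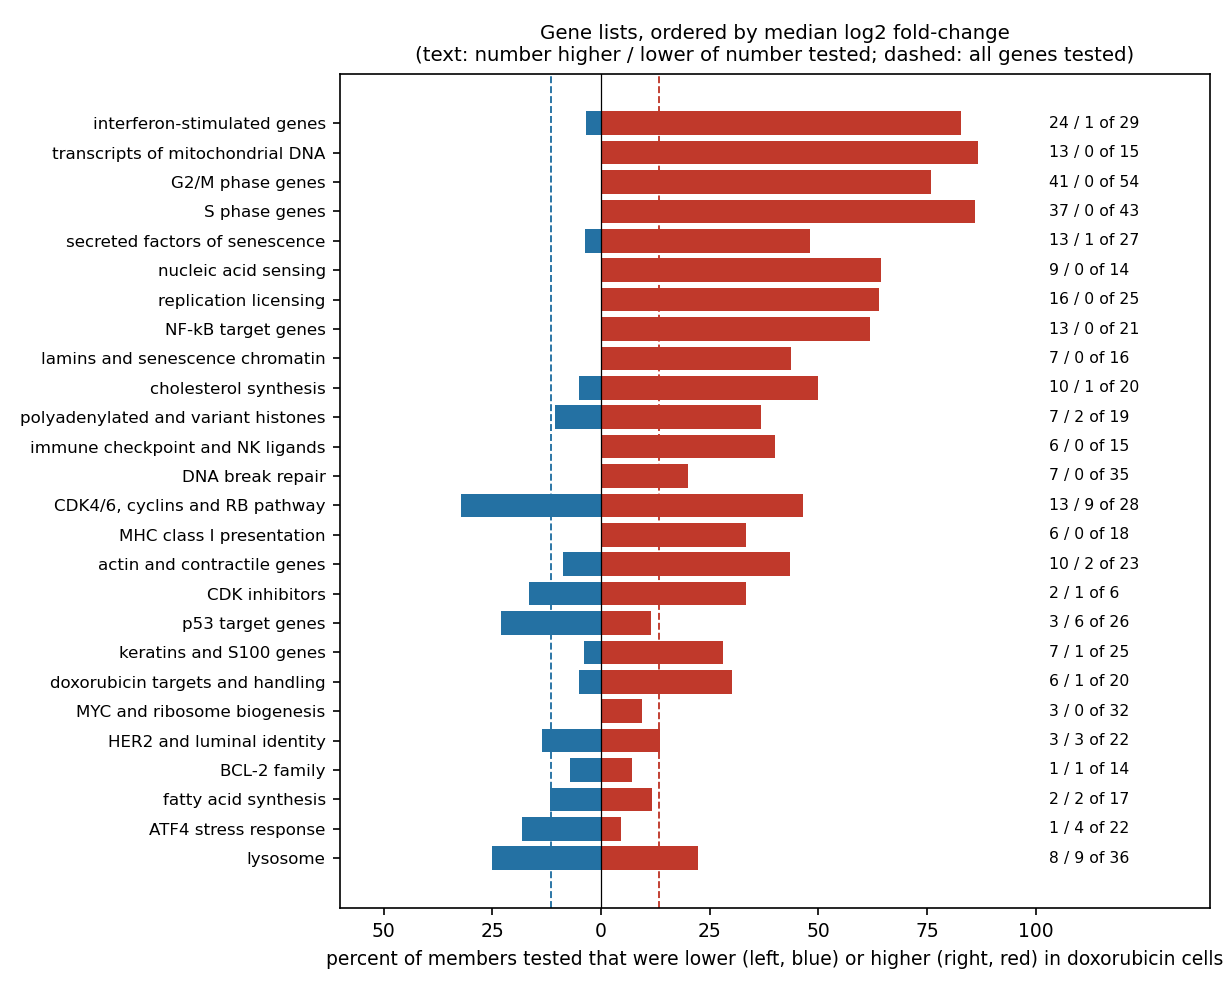
Share of the members tested in each gene list that were higher (red, to the right) or lower (blue, to the left) in doxorubicin than in palbociclib cells, in percent, ordered by median log2 fold-change, with the shares of all genes tested as dashed lines (13.4% and 11.6%). The interferon-stimulated (24 of 29), G2/M (41 of 54) and S phase (37 of 43) lists lie far to the right, and the lysosome and CDK4/6 lists hold genes of both directions.

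Among single genes with at least 5 CPM in the higher group and no overlap, 4 of the 12 with the largest fold-change toward doxorubicin were the interferon-stimulated genes OAS2, IFI6, OAS3 and IFITM1, and KRT17 was another. FLNC (NCBI Gene 2318, chr7:128470460-128499328), filamin C of muscle Z-discs, was at 7.95, 8.97 and 8.21 CPM with doxorubicin and at 0.689, 0.942 and 1.01 CPM with palbociclib (log2 fold-change 3.24, adjusted p = 8.08e-06). ACTA1, the actin of skeletal muscle, was at 13.6, 11.8 and 10.2 CPM against 2.61, 2.96 and 2.21 CPM (log2 fold-change 2.19, adjusted p = 4.15e-05), and its sequence is close to that of ACTA2. HMOX1 (NCBI Gene 3162, chr22:35776354-35790207), heme oxygenase 1 of the oxidative stress response, was at 218, 188 and 199 CPM against 44.6, 54.4 and 33.8 CPM. Its log2 fold-change was 2.18 ± 0.14 (SE, adjusted p = 1.22e-05), and relative to untreated day-7 cells it was 2.54 with doxorubicin (adjusted p = 3.4e-08) and 0.35 with palbociclib (adjusted p = 0.0759).

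SAA1, an acute phase protein, was at 8.48, 6.18 and 8.99 CPM against 1.05, 1.396 and 1.504 CPM (log2 fold-change 2.58, adjusted p = 7.06e-05), and its reads can be shared with SAA2. CEACAM5, the carcinoembryonic antigen, was at 9.13, 10.0 and 8.46 CPM against 1.23, 2.83 and 1.26 CPM (log2 fold-change 2.38, adjusted p = 0.000304), with close paralogs likewise. PPP1R1B, the phosphatase inhibitor DARPP-32 encoded in the ERBB2 region, was at 18.4, 25.1 and 16.6 CPM against 3.36, 4.35 and 3.87 CPM (log2 fold-change 2.37, adjusted p = 2.99e-05). The untreated day-7 mean of PPP1R1B was 15.6 CPM, and the palbociclib level fell below it by 2.003 on the log2 scale (adjusted p = 4.95e-06), whereas with doxorubicin the log2 fold-change was 0.38 (adjusted p = 0.0652). DNAH3, a dynein of cilia, had a log2 fold-change of 2.82 (adjusted p = 8.00e-05).

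Among the 12 genes with the largest fold-change toward palbociclib were carriers, enzymes and genes of the extracellular matrix. SLC16A9 (NCBI Gene 220963, chr10:61410522-61495760), a carrier of carnitine and creatine, was at 3.28, 2.37 and 2.80 CPM with doxorubicin and at 11.6, 10.8 and 11.5 CPM with palbociclib (log2 fold-change -2.01, adjusted p = 4.54e-05). The SLC16A9 mean of 5.41 CPM in untreated day-7 cells lay between them, with log2 fold-changes of -0.91 and 1.08 (adjusted p = 0.00192 and 7.61e-05). PTPRM, a receptor phosphatase of cell contacts, was at 2.58, 2.58 and 4.04 CPM against 9.26, 10.6 and 13.5 CPM (log2 fold-change -1.87, adjusted p = 0.000300). COL4A5 and MATN3, both of the extracellular matrix, had log2 fold-changes of -1.82 (adjusted p = 0.000145 and 0.00113 in turn). ACOX2, the peroxisomal oxidase of bile acid intermediates, was at 1.23, 2.37 and 1.21 CPM against 4.65, 6.46 and 5.49 CPM (log2 fold-change -1.79, adjusted p = 0.00125). ETV1, an ETS factor, and GPC5, a heparan sulfate proteoglycan, had log2 fold-changes of -1.74 and -1.66 (adjusted p = 0.000142 and 0.000145). GLYATL2, an N-acyltransferase, was at 9.68, 9.47 and 14.7 CPM against 40.6, 29 and 38.3 CPM (log2 fold-change -1.68, adjusted p = 0.000205).

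Among these 12 genes, palbociclib replicate 3 stood above the other palbociclib replicates by the widest margins for MUC19, PABPC1L and ZNF731P. MUC19, a gel-forming mucin, was at 4.796, 4.25 and 11.4 CPM with palbociclib and at 2.22, 1.12 and 1.90 CPM with doxorubicin (log2 fold-change -1.96, adjusted p = 0.00460). PABPC1L, a poly(A)-binding protein of oocytes, was at 45.1, 46.2 and 98.3 CPM against 23.4, 13.97 and 20.4 CPM (log2 fold-change -1.72, adjusted p = 0.00208, and 0.0837 with all 24 libraries in the fit). ZNF731P, a pseudogene whose reads can be shared with related zinc finger genes, was at 6.44, 8.57 and 12.8 CPM against 2.70, 1.75 and 3.33 CPM (log2 fold-change -1.84, adjusted p = 0.00140). For each of these genes the groups did not overlap, as the naming rule requires.

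**Figure D4:**
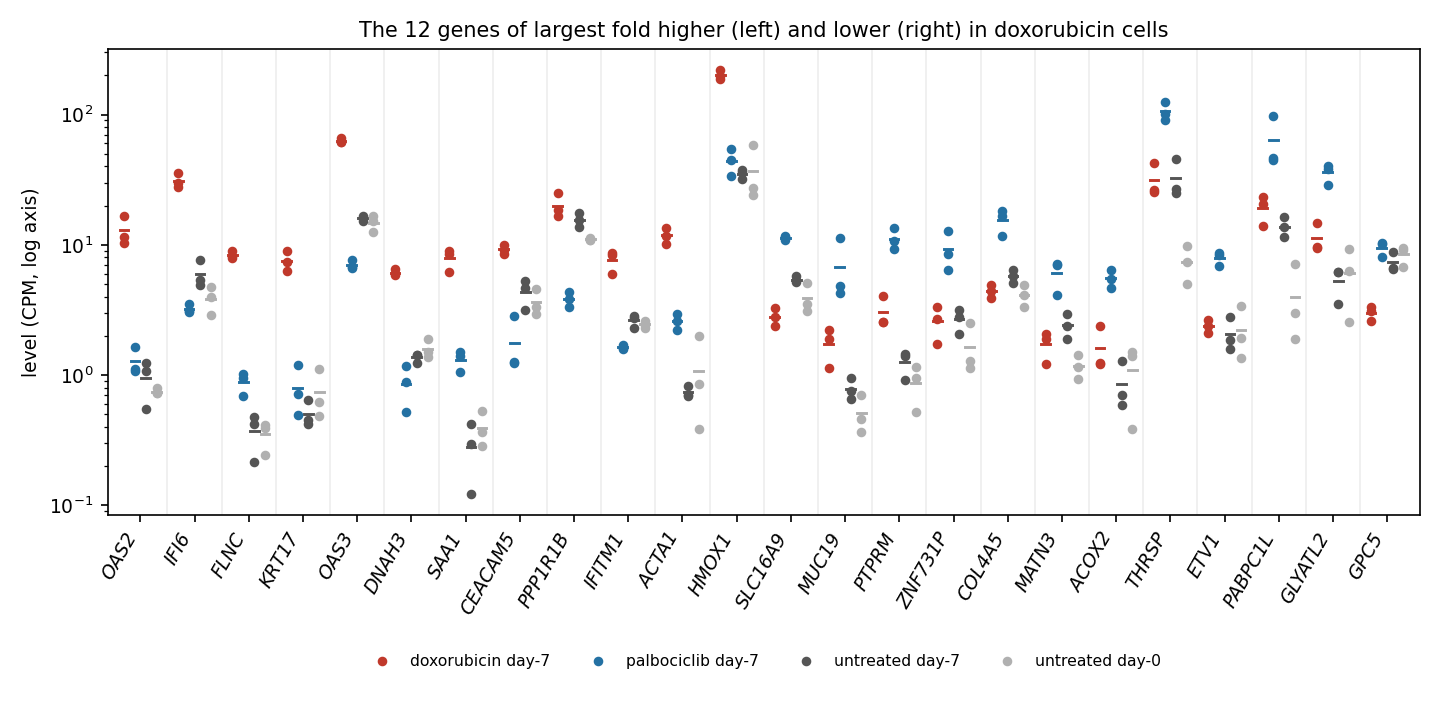
Levels in CPM on a log axis of the 12 genes with the largest fold-change higher (left) and lower (right) in doxorubicin cells under the naming rule, with 1 dot per library and a bar for the mean of 3 libraries in each of 4 groups. Red and blue dots do not overlap for any gene, which the naming rule requires. The untreated day-7 mean lies near palbociclib for HMOX1 and near doxorubicin for THRSP (32.6 CPM) and PPP1R1B (15.6 CPM).

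The untreated day-7 level gave a place to each gene called between the drugs. Of the 1856 genes higher in doxorubicin cells, 747 (40.2%) had an untreated level above both drugs, 492 (26.5%) below both, 312 (16.8%) between them and nearer doxorubicin, and 305 (16.4%) between them and nearer palbociclib. Of the 1616 genes lower in doxorubicin cells, 576 (35.6%) had an untreated level below both drugs, 357 (22.1%) above both, 358 (22.2%) between them and nearer doxorubicin, and 325 (20.1%) between them and nearer palbociclib. The place above both drugs was the most common one for genes higher in doxorubicin cells, and the S phase and G2/M genes that passed all fell in it. With untreated day-0 cells as the reference, 858 of the genes higher in doxorubicin cells were above both and 455 below both, and 825 of the genes lower in doxorubicin cells were below both and 290 above both. These are counts of mean log2 levels with no test.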

How the data were processed

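RNA-seq was compared between 3 doxorubicin and 3 palbociclib TIS libraries of SKBR3 cells, with 3 untreated day-7 and 3 day-0 libraries as references. Groups and replicate numbers were taken from the labels. The values deposited by the authors are raw counts of reads for each gene, whole numbers without normalization, from HISAT2 alignments to GRCh37 and StringTie transcripts. How reads were counted, and whether by strand, is not given in the sources used here. The lowest count in the table is 1, so genes with no reads in some library were not tested.

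The quasi-likelihood test of edgeR 4.0.16 (R 4.3.3, two-sided) was run on the counts after filterByExpr and TMM, with no covariate and only the groups compared, and adjusted with the Benjamini-Hochberg method over 13874 genes. The smallest p of an exact permutation test of 3 against 3 is 0.1. CPM carry TMM scaling, and log2 CPM use a prior count of 2. Counting error was not separated from the spread between replicates. The members and gene lists were chosen with earlier results of these data known, and the S and G2/M lists are those of Seurat 5.3.0. The list of mitochondrial DNA transcripts was added after values were seen.

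Named genes are the 12 with the largest fold-change in each direction (called, no overlap, at least 5 CPM, no LOC symbol), up to 4 called members per list with the largest change, and a set of senescence, target and cell cycle genes. Other members are named only as parts of counts, or are said to be chosen after their values were seen. Deviations from the group means correlated between same-numbered libraries of the drugs at 0.146 to 0.369 (all 3 pairs over 0.1) and between different numbers at -0.328 to 0.121. By this rule the numbers count as pairs, although no label says what a number shares. Doxorubicin replicate 1 and palbociclib replicate 3 also passed 0.1 (0.121). The calls are those of the fit without pairs, and the replicate block is an alternative under which some of them change. Promoters are RefSeq sequences of GRCh38.p14, matched by gene ID for 77.1% of genes tested. Alternatives were DESeq2 1.42.0, RLE size factors, a filter of at least 10 counts per library or none, the replicate block, a fit of all 24 libraries, a fold-change threshold, day-0 cells as reference and leaving out each library. The edgeR fit was tested on simulated data. The other drugs of the series were not analysed here beyond the fit of all libraries. Some genes under the naming rule are not reported here, though they remain in the counts.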

Additional observations from a re-analysis of the deposited data

How the results depend on the processing

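For 132 called and 9 other named genes, 1717 of 1815 values under the alternatives kept their direction and side of the threshold, 87 missed it, 10 newly passed it and 1 turned. TOP2B, which did not pass, had log2 fold-changes from -0.115 to 0.0181 when 1 library was left out, above 0 without palbociclib replicate 1. The replicate block gave 3023 genes higher and 2926 lower. By list it gave 2 CDK inhibitors lower, 2 licensing genes lower, 17 break repair genes higher and 4 lower, 7 p53 targets higher, 5 doxorubicin handling genes lower, 1 sensing gene lower, 2 MHC genes lower, 1 NF-κB gene lower, 2 secreted factors lower, 10 NK and checkpoint ligands higher, 15 lysosomal genes lower, 4 fatty acid genes lower, 5 MYC genes higher and 1 lower, 6 ATF4 genes higher, 2 BCL-2 genes higher and 4 lower, 11 histone genes higher, 1 lamin or chromatin gene lower, 11 keratin and S100 genes higher and 6 lower, 5 HER2 genes lower, 2 identity markers lower and 1 G2/M gene lower. Among the genes reported here under the naming rule or as mitochondrial transcripts, it added a call for CDKN2A, GDF15, LCN2, ERBB2, COX2 and ND1. No other call in this set changed under it. Outside this set it also added calls for PRKDC, XRCC5 and XRCC6.

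All 24 libraries in 1 fit gave 1168 genes higher and 930 lower, with 5 CDK4/6 genes lower, 0 CDK inhibitors lower, 3 p53 targets lower, 0 secreted factors lower, 5 lysosomal genes higher and 4 lower, 3 cholesterol genes higher and 0 lower, 1 fatty acid gene higher, 1 MYC gene higher, 0 histone genes lower, 1 actin gene lower, 0 keratin and S100 genes lower and 0 mitochondrial transcripts higher. An adjusted p together with a fold-change of at least 2 left 441 and 148 genes, since fewer genes can pass both. DESeq2 gave 1 break repair gene lower, 5 p53 targets higher, 1 lamin or chromatin gene lower and 2 keratin and S100 genes lower. RLE size factors gave 2 secreted factors lower, no filter gave 0 BCL-2 genes lower, and leaving out mitochondrial transcripts gave 1 break repair gene lower.

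Leaving out 1 library gave 1051 to 1778 genes higher and 856 to 1611 lower, where fewer samples also lower the power, and the smallest counts came without doxorubicin replicate 1. Ranges by list were 5 to 10 CDK4/6 genes lower, 1 to 3 CDK inhibitors higher, 2 to 5 p53 targets higher and 3 to 5 lower, 5 to 9 sensing genes higher, 0 to 1 MHC genes lower, 0 to 2 secreted factors lower, 3 to 7 ligands higher, 4 to 10 lysosomal genes higher and 3 to 8 lower, 1 to 3 fatty acid genes lower, 1 to 2 MYC genes higher and 0 to 1 lower, 1 to 7 ATF4 genes higher, 1 to 2 BCL-2 genes higher and 0 to 2 lower, 0 to 2 histone genes lower, 0 to 1 lamin or chromatin genes lower, 5 to 9 actin genes higher and 1 to 3 lower, 1 to 3 keratin and S100 genes lower, and 4 to 13 mitochondrial transcripts higher. The cause of the other changes was not tested.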

Other observations

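Transcripts of mitochondrial DNA, a list named after its values were seen, were higher in doxorubicin than in palbociclib cells for 13 of 15 members and lower for 0, with a median log2 fold-change of 0.83. COX1, a subunit of cytochrome c oxidase, was at 18910, 19530 and 13310 CPM against 8407, 5225 and 10350 CPM (log2 fold-change 1.10, adjusted p = 0.00603). Palbociclib replicate 2 held the lowest level. Without doxorubicin replicate 1 the count was 4, and with all 24 libraries in the fit it was 0, where the adjusted p for COX1 was 0.127.

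NEAT1, the long non-coding RNA that builds paraspeckles, was chosen after its values were seen. It was at 393, 257 and 424 CPM with doxorubicin and at 841, 620 and 1419 CPM with palbociclib (log2 fold-change -1.43, adjusted p = 0.00385), and at 206 CPM on average in untreated day-7 cells. MALAT1, its neighbour on the chromosome, overlapped between the drugs (log2 fold-change 0.14, adjusted p = 0.728). Of 303 transcribed pseudogenes tested, 5 were higher and 40 were lower in doxorubicin cells (median log2 fold-change -0.13), against 13.4% and 11.6% of all genes, so the share that was lower is near that background. Of 778 long non-coding RNAs 39 were higher and 59 lower. HERC2P2 was among those pseudogenes, at 25.6, 13.3 and 29.5 CPM against 49.3, 54.0 and 110 CPM (log2 fold-change -1.64, adjusted p = 0.00469), and its reads can be shared with HERC2.

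LOC112694756, an entry that RefSeq links to ALDOA and whose reads can be shared with that gene, was at 370, 480 and 192 CPM with doxorubicin and at 13.6, 11.4 and 10.5 CPM with palbociclib (log2 fold-change 4.87, adjusted p = 7.77e-06). Its untreated day-7 mean was 512 CPM. ALDOA, which encodes aldolase A, ran the other way, at 1003, 1112 and 913 CPM against 1315, 1361 and 1205 CPM (log2 fold-change -0.36, adjusted p = 0.0189). Both were named after their values were seen, and how reads were divided between them was not tested.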
